A study of Mus musculus with 6 samples.

Results

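The collagen chain genes encode the α-chains from which every collagen is built. They were chosen by name alone, as all rows whose mouse symbol is Col, a type number, the letter a and a chain number. This rule found 44 genes among the 54525 gene rows counted, which were then grouped as fibrillar (11 genes), basement membrane type IV (6 genes), type VI (6 genes) and other collagens (21 genes). RNA was sequenced from wild-type C2C12 cells, an established mouse myoblast line, with no further allele or agent in either group. D0 was proliferating myoblasts in growth medium with fetal bovine serum (n = 3), and D5 was myotubes after 5 days in differentiation medium with horse serum (n = 3). All cultures were 1 cell line, and the labels do not say whether the 3 samples of a group came from separate experiments, so the p-values measure the spread between these samples only.

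Collagens are extracellular matrix proteins made of chains wound into a triple helix. Fibrillar collagens carry the tension of connective tissue, type IV collagen forms the sheet-like network of the basement membrane around each muscle fibre, and type VI collagen forms beaded microfilaments that lie next to that membrane. In muscle these proteins are made both by fibroblast-like interstitial cells and by myogenic cells, and inherited defects of the type VI chains cause the Ullrich and Bethlem muscle diseases.

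The D0 libraries held between 36555048 and 40895840 gene counts, and those of D5 between 25449759 and 25811300. Levels are given as counts scaled to a library of 1000000 (CPM) after scaling by the trimmed mean of M-values, or as TPM, which also divides by the merged exonic length of the gene. A chain with at most 3 counts in every library of a group was treated as not detected there, and folds against that group are then lower bounds that cover counting error only. Differences were tested with edgeR's quasi-likelihood test over 16290 genes, and log2 fold changes are D5 over D0 with their standard error (SE). Differentiation showed in the marker genes. Of 8 muscle genes 7 rose, where 42.2% of all genes did so (*Myh3*, *Mymk* and *Ckm* by the most, and *Myod1* fell). Of 8 proliferation genes 8 fell, where 40.8% of all genes did so. The summed level of the proliferation genes went from between 1982 and 2013 CPM at D0 to between 57.9 and 67.8 CPM at D5.

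Of the 44 collagen chains, 34 passed the filter on low counts, 21 were higher at D5, 9 were lower and 4 made no call. Over all genes tested, 42.2% were called higher and 40.8% lower, so that 82.9% of them passed this test in either direction. The log2 fold changes of the tested chains had a median of 2.05, against 0.0022 over all genes, and ran from the type IV chain *Col4a3* to the type VI chain *Col6a2*. Changes of large size were common among them: 18 of the 34 rose by a log2 fold change of at least 2, against 10.7% of all genes, and 2 fell by as much, against 6.16%. These counts are shaped by the filter. Of the 21 chains called higher, 12 passed the filter through their D5 libraries alone, which favours a call of higher. The 21 chains that passed it in both groups split into 9 higher, 8 lower and 4 without a call, with a median of 0.03, and among the 13641 genes that passed in both groups 40.9% were higher and 42.5% lower. Every D5 library lay above every D0 library for 21 tested chains, where 42.2% of all genes did so, and below for 10, where 41.1% did so. Scaling by the ERCC spike-ins in place of the gene counts moved the median of all genes to -0.58, lowered the share of higher genes among all calls from 50.8% to 32.6%, and left 18 chains higher and 6 lower, where 11.1% of all genes were higher and 23% lower. These 18 included all 12 chains that passed the filter through D5 alone, so this count is shaped by the filter as well. The ERCC share of the counts ran from 0.726% to 0.859% in the D0 libraries and from 0.720% to 2.09% in the D5 libraries. This scaling thus carries a wide spread within D5.

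**Figure D1:**
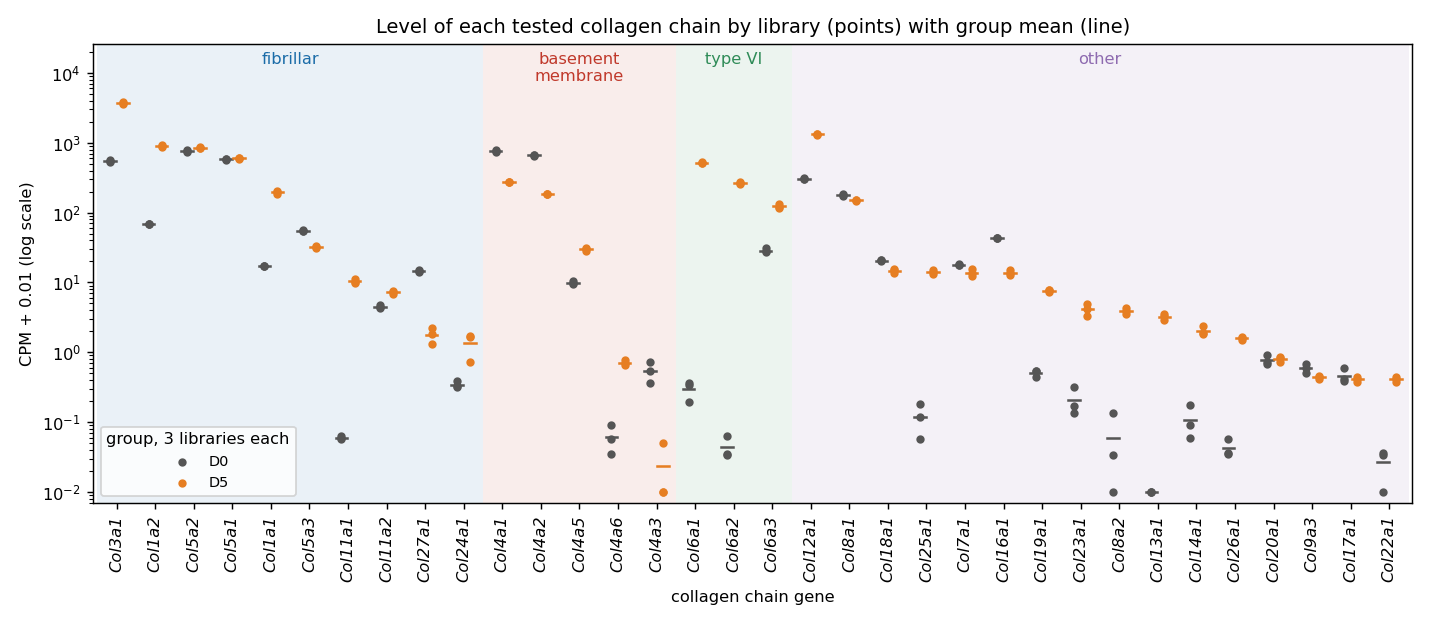
Level of each of the 34 tested collagen chains in the 3 D0 libraries (grey points) and the 3 D5 libraries (orange points), in CPM plus 0.01 on a log axis, with the group mean as a line and the chains arranged by class. *Col3a1* reached a mean of 3727 CPM at D5, *Col6a1* and *Col6a2* went from under 1 CPM to 512 and 265 CPM, and *Col4a1* and *Col4a2* sat lower at D5 than at D0.

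As a group, the collagen chains took 0.423% ± 0.0057 (SD, n = 3) of all gene counts at D0 and 0.899% ± 0.015 (SD, n = 3) at D5, a ratio of 2.13. The exact two-sided permutation test gave p = 0.1, the smallest that 3 against 3 libraries allow. On the TPM scale, which corrects for the length of the genes, the collagen share was 0.168% at D0 and 0.308% at D5. In these bulk samples, more cells that make a collagen and more of its RNA per cell cannot be told apart.

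The make-up of this share changed most for type IV in percentage points and for type VI as a ratio. Type IV chains were 42.2% ± 0.42 (SD, n = 3) of collagen TPM at D0 and 6.92% ± 0.078 at D5. Fibrillar chains were 46.0% ± 0.12 at D0 and 65.3% ± 0.16 at D5. Type VI chains were 0.511% ± 0.03 at D0 and 16.0% ± 0.086 at D5. In each of these classes the D0 and D5 libraries did not overlap (exact permutation p = 0.1 each). The other collagens made up 11.3% ± 0.36 at D0 and 11.7% ± 0.15 at D5, and their libraries overlapped (exact permutation p = 0.2). With principal transcript lengths, type IV was 36.0% at D0 and 4.88% at D5, fibrillar 50.9% and 70.9%, type VI 0.535% and 13.5%, and the other collagens 12.5% and 10.7%, a turn in direction for the last.

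**Figure D2:**
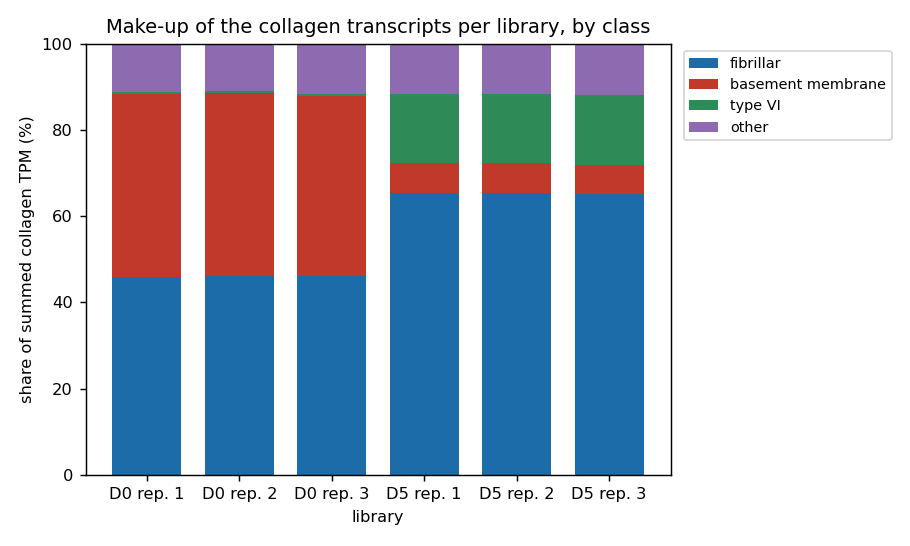
Share of the summed collagen TPM (%) taken by fibrillar, basement membrane, type VI and other chains in each of the 6 libraries, as stacked bars that add up to 100%. The basement membrane part is 42.2% on average at D0 and 6.92% at D5, and the type VI part grows from 0.511% to 16.0%.

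In the order of levels per length, the chain that stood first in myotubes was the fibrillar *Col3a1*, while the order in myoblasts depended on the length used. With merged exonic lengths at D0, *Col4a1* had 357 ± 12.7 TPM (SD, n = 3) and *Col4a2* 345 ± 4.39 TPM, a gap smaller than their summed SDs. They were followed by *Col5a2* (277 ± 5.98 TPM), *Col5a1* (240 ± 8.39 TPM) and *Col3a1* (193 ± 5.17 TPM). At D5, also with merged lengths, *Col3a1* alone held 38.3% of collagen TPM at 1179 ± 47.9 TPM, and *Col6a1* was next at 363 ± 9.35 TPM. The neighbours *Col5a2* (276 ± 8.15 TPM) and *Col12a1* (268 ± 10.8 TPM) did not differ beyond their spread at D5, nor did *Col1a2* (223 ± 4.70 TPM) and *Col5a1* (220 ± 2.15 TPM). *Col4a1* stood at 113 ± 2.38 TPM in myotubes. The merged exonic length exceeds the principal transcript of some genes. With the length of the principal transcript, *Col4a1* (282 ± 9.44 TPM) and *Col5a2* (281 ± 5.49 TPM) did not differ beyond their spread at D0, and both stood above *Col4a2* (248 ± 2.69 TPM) and *Col3a1* (238 ± 5.96 TPM). At D5 with these lengths, *Col3a1* was still first at 1474 ± 55.2 TPM, or 44.1% of collagen TPM. *Col1a2* came next at 366 ± 8.15 TPM, ahead of *Col5a2* at 283 ± 7.90 TPM and *Col6a1* at 275 ± 6.74 TPM, so that the second place of *Col6a1* was lost. *Col6a2* had 148 TPM at D5 with the principal length and 98.8 TPM with the merged one.

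The fibrillar collagens of types I and III rose, those of type V hardly moved or fell, and the minor fibrillar chains went both ways. Of the 10 tested of 11 fibrillar chains, 7 were higher at D5, 2 lower and 1 made no call. These were 70% and 20%, where 42.2% and 40.8% of all genes were higher and lower. The median log2 fold change of these chains was 1.35. The 8 that passed the filter in both groups split into 5 higher, 2 lower and 1 without a call, with a median of 0.42, and the other two, *Col11a1* and *Col24a1*, passed through D5 alone. Their summed level went from between 2042 and 2101 CPM at D0 to between 6231 and 6400 CPM at D5.

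*Col3a1* encodes the single chain of type III collagen, a fibre of the sheaths around muscle fibres, and lies on the plus strand at chr1:45311538-45349706 (GRCm38). Its levels were 542, 561 and 537 CPM at D0 and 3799, 3642 and 3740 CPM at D5. All 3 D5 libraries were far above all D0 libraries, by a log2 fold change of 2.77 (SE 0.035, adjusted p = 3.6e-33, edgeR's quasi-likelihood test). The RefSeq window of 250 bases before to 50 bases after its start, at chr1:45311288-45311587 (GRCm38.p6, plus strand), is shown because this was the most abundant chain of the myotubes. Capitals mark its 4 matches to the E-box CANNTG, the motif of MyoD-family factors and many others.
Col3a1: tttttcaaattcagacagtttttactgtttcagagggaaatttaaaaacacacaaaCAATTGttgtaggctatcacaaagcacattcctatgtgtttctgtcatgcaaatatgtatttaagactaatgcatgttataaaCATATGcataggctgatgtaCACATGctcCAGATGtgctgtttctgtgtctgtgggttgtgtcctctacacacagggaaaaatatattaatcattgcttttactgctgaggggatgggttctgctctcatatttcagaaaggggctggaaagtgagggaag

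Type I collagen, the main fibre of bone, tendon and muscle fascia, is a trimer of 2 chains from *Col1a1* and 1 from *Col1a2*. *Col1a1* (chr11:94936224-94953042, plus strand) had 17.3, 17.5 and 17.3 CPM at D0 and 187, 199 and 206 CPM at D5. It rose 11.4-fold (log2 fold change 3.51, SE 0.043, adjusted p = 1.9e-33). *Col1a2* (chr6:4504814-4541544, plus strand) had 68.6, 69.6 and 68.0 CPM at D0 and 865, 890 and 917 CPM at D5. It rose as well (log2 fold change 3.70, SE 0.036, adjusted p = 6.2e-36), so both chains of this trimer were separated from their D0 levels in every library. The ratio of *Col1a1* to *Col1a2* per length was 0.478 ± 0.0038 (SD, n = 3) at D0 and 0.420 ± 0.0086 at D5 (exact permutation p = 0.1). With principal transcript lengths it was 0.228 and 0.200, so the level of this ratio depends on which length of *Col1a2* is used, while its change does not.

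Type V collagen sits inside type I fibrils and sets their diameter. *Col5a1*, its chain shared by most type V molecules, had 574, 595 and 595 CPM at D0 and 583, 610 and 611 CPM at D5, and the groups overlapped. Its log2 fold change was 0.03 (SE 0.032, adjusted p = 0.344), and it was -0.05 with total counts, -0.02 without a filter and -0.53 with ERCC scaling. *Col5a2* had 771, 785 and 749 CPM at D0 and 848, 837 and 872 CPM at D5. It was called higher by a log2 fold change of 0.15 (SE 0.032, adjusted p = 0.000103), a call lost with total counts (0.07, adjusted p = 0.0594) and turned in direction with ERCC scaling (-0.42, adjusted p = 0.544). *Col5a3*, a chain of restricted type V molecules, had 54.5, 55.1 and 56.4 CPM at D0 and 31.4, 32.5 and 32.9 CPM at D5. It fell by 0.78 on the log2 scale (SE 0.044, adjusted p = 2.1e-16). The type V chains thus moved in different directions and by small amounts beside types I and III. The ratio of *Col5a1* to *Col5a2* per length was 0.865 ± 0.029 at D0 and 0.797 ± 0.024 at D5 (exact permutation p = 0.1). With principal transcript lengths it was 0.603 at D0 and 0.556 at D5.

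Type XI chains form cartilage fibrils together with type II collagen. *Col11a1* had 2 counts in each D0 library and 283, 240 and 251 counts at D5, which is at least 138-fold higher (adjusted p = 9.5e-24). *Col11a2* had 4.48, 4.68 and 4.34 CPM at D0 and 7.36, 7.62 and 6.79 CPM at D5, a log2 fold change of 0.69 (SE 0.099, adjusted p = 2.5e-07). With ERCC scaling the rise of *Col11a2* was 0.14 and no longer passed. *Col2a1*, the type II chain that defines cartilage, was not tested, with at most 7 counts in any library. Among the late-described minor fibrillar chains, *Col24a1* had 0.373, 0.309 and 0.323 CPM at D0 and 0.716, 1.62 and 1.73 CPM at D5. It rose by a log2 fold change of 2.01 (SE 0.31, adjusted p = 6.5e-07), with its lowest D5 library still above D0. *Col27a1*, a chain of cartilage and growth plate, went the other way, with 15.04, 13.9 and 14.7 CPM at D0 and 2.19, 1.30 and 1.81 CPM at D5. It fell by 3.04 on the log2 scale (adjusted p = 8.9e-21), the steepest fall of a fibrillar chain.

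**Figure D3:**
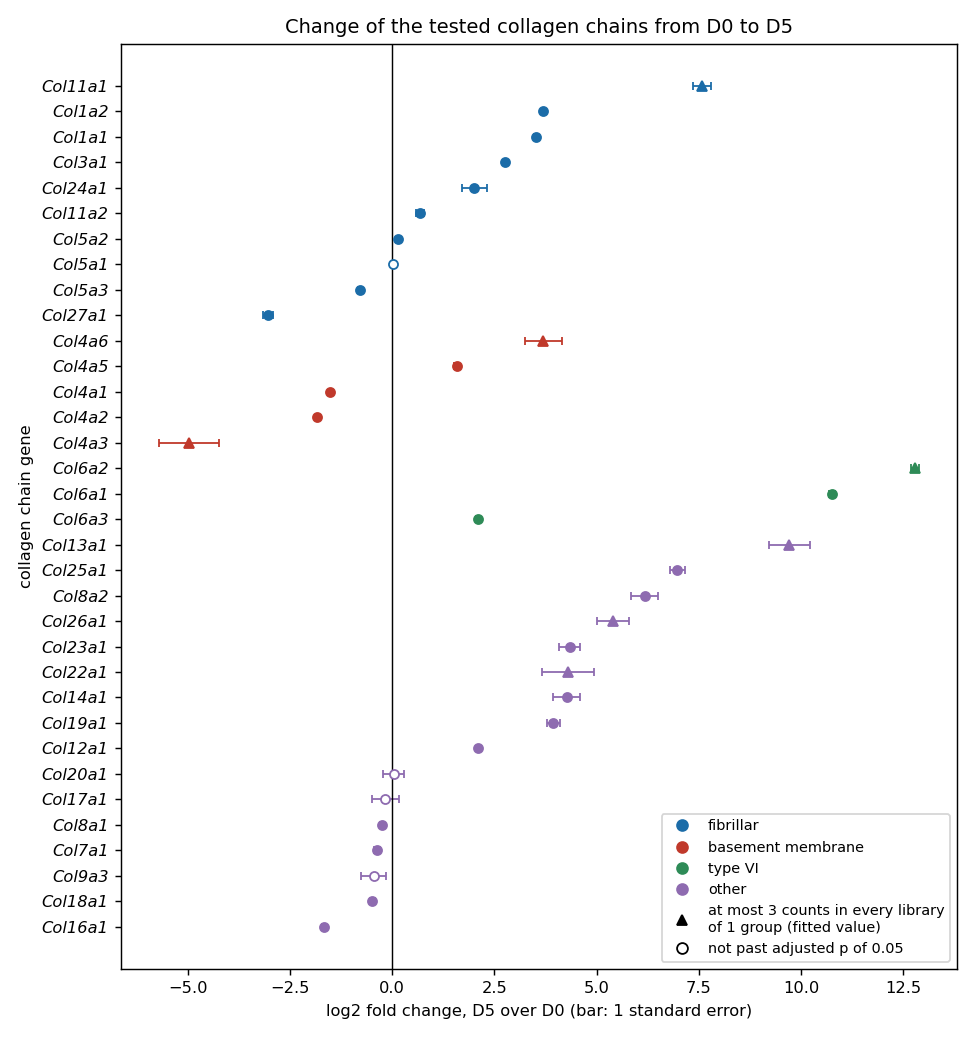
Log2 fold change of D5 over D0 for the 34 tested collagen chains, coloured by class, with bars of 1 standard error from edgeR's quasi-likelihood test. Open points did not pass an adjusted p of 0.05, triangles had at most 3 counts in every library of 1 group, so that their fitted value is no measured fold, and *Col5a2* at 0.15 turned to -0.42 with ERCC scaling while the open points *Col5a1* and *Col20a1* also changed sign under other scalings.

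The type IV chains did not move as 1 block. The pair that forms the common basement membrane network, *Col4a1* and *Col4a2*, fell, and the pair *Col4a5* and *Col4a6*, found in restricted basement membranes, rose. Of the 5 tested of 6 chains, 2 were higher, 3 lower and none was without a call, with a median log2 fold change of -1.51. As shares, 40% were higher and 60% lower, where 42.2% and 40.8% of all genes were. *Col4a6* passed the filter through D5 alone and *Col4a3* through D0 alone. Their summed level went from between 1407 and 1477 CPM at D0 to between 484 and 488 CPM at D5.

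*Col4a1* (chr8:11198423-11312826, minus strand) had 763, 799 and 747 CPM at D0 and 271, 270 and 271 CPM at D5. It fell 2.84-fold (log2 fold change -1.51, SE 0.033, adjusted p = 6.3e-27). *Col4a2* (chr8:11312805-11449287, plus strand) had 665, 668 and 649 CPM at D0 and 186, 182 and 186 CPM at D5. It fell 3.58-fold (log2 fold change -1.84, SE 0.033, adjusted p = 1.9e-29). Both chains lay lower in every D5 library. The ratio of *Col4a1* to *Col4a2* per length was 1.03 ± 0.024 at D0 and 1.30 ± 0.014 at D5, a change of 1.26-fold (exact permutation p = 0.1). With principal transcript lengths it was 1.14 at D0 and 1.43 at D5, so its level depends on the length used. The helix of the common network takes 2 chains of the first to 1 of the second.

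The 2 genes lie head to head on opposite strands, and their first exons overlap by 22 bases. The RefSeq start window of *Col4a2*, at chr8:11312555-11312854 (GRCm38.p6, plus strand), is printed because this short stretch lies at the start of both genes, with capitals marking the 22 shared bases. Its GC content was 73.7%, against a median of 52.7% over the 32851 start windows of the table.
Col4a2: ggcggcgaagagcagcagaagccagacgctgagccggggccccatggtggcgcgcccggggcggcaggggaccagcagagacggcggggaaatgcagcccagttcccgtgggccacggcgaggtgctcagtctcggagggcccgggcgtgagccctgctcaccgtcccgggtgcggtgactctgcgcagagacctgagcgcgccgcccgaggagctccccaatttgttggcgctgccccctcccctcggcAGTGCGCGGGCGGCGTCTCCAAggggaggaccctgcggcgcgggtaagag

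The other type IV chains also lie in head-to-head pairs. *Col4a5* and *Col4a6* (chrX:141475385-141689234, plus strand, and chrX:141165403-141474076, minus strand) are 1308 bases apart. *Col4a5* had 10.3, 9.86 and 9.60 CPM at D0 and 28.4, 30.9 and 30.1 CPM at D5. It rose 3.00-fold (log2 fold change 1.59, SE 0.060, adjusted p = 7.3e-21). With ERCC scaling this rise was 1.03 and did not pass (adjusted p = 0.115). *Col4a6* had 3, 2 and 1 counts at D0 and 19, 17 and 16 counts at D5, at least 9.25-fold higher (adjusted p = 9.7e-09). *Col4a3* and *Col4a4*, chains of the kidney and lung basement membrane, start 71 bases apart on chromosome 1. *Col4a3* had 20, 15 and 29 counts at D0 and 0, 1 and 0 at D5, at least 4.45-fold lower (adjusted p = 3.5e-07). It was no longer tested when D0 replicate 1 or D0 replicate 3 was left out. Of its exonic length, 5.65% overlaps a gene on the opposite strand, and whether reads of that gene were counted here was not tested. *Col4a4* had between 0 and 2 counts per library and was not tested. In the pair *Col4a1* and *Col4a2* and the pair *Col4a5* and *Col4a6*, the partners thus moved the same way.

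The type VI chains showed the sharpest change of all classes as a ratio of summed levels. Of 6 chains, the 3 classical ones, *Col6a1*, *Col6a2* and *Col6a3*, were tested and all rose. That was 100%, where 42.2% of all genes were higher. *Col6a1* and *Col6a2* passed the filter on low counts through D5 alone, which favours a call of higher, and *Col6a3* passed in both groups. The summed level of the type VI chains went from between 27.2 and 31.2 CPM at D0 to between 879 and 916 CPM at D5. A type VI monomer takes 1 of each of the 3 classical chains.

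*Col6a1* (chr10:76708792-76726168, minus strand) had 7, 14 and 14 counts at D0 and 12737, 12460 and 13057 counts at D5. Its mean level of 0.289 ± 0.089 CPM (SD, n = 3) in myoblasts became 512 ± 10.7 CPM in myotubes (log2 fold change 10.76, SE 0.073, adjusted p = 1.1e-39). *Col6a2* (chr10:76595762-76623630, minus strand) had 2, 1 and 1 counts at D0 and 6697, 6308 and 6793 counts at D5. It was at least 3522-fold higher (adjusted p = 1.2e-38). *Col6a3* (chr1:90765923-90843971, minus strand) was already present in myoblasts, with 26.9, 30.7 and 28.3 CPM at D0 and 133, 118 and 119 CPM at D5. It rose 4.30-fold (log2 fold change 2.11, SE 0.049, adjusted p = 2.3e-26). Thus myoblasts held the RNA of 1 of the 3 chains well above the detection limit, and myotubes held all 3.

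The ratio of *Col6a3* to *Col6a1* per length was 38.8 ± 12.2 at D0 and 0.0882 ± 0.0072 at D5, a change of 427-fold (exact permutation p = 0.1). With principal transcript lengths it was 48.2 at D0 and 0.110 at D5. At D5 the ratio of *Col6a1* to *Col6a2* was 3.67 ± 0.072 with merged exonic lengths and 1.86 ± 0.037 with principal transcript lengths, and no D0 value was formed because *Col6a2* was not detected there. Over the 4 chain ratios tested, the Benjamini-Hochberg adjusted exact p was 0.1 for each, which is the smallest possible.

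*Col6a2* and *Col6a1* are neighbours on the same strand of chromosome 10, 85161 bases apart, and *Col6a3* lies elsewhere. The start windows of the 2 neighbours are set side by side because these genes went from barely counted to abundant. They stand at chr10:76725995-76726294 for *Col6a1*, whose RefSeq start is 124 bases from the annotated gene start, and at chr10:76623581-76623880 for *Col6a2*, both on the minus strand (GRCm38.p6). Capitals mark the E-box CANNTG, which matched 1 time in the first and not in the second.
Col6a1: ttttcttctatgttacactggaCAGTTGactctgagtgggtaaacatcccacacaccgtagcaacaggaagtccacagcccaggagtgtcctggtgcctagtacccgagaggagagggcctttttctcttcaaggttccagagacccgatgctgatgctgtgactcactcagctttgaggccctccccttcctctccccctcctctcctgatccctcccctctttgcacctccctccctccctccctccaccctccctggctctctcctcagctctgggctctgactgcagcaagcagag
Col6a2: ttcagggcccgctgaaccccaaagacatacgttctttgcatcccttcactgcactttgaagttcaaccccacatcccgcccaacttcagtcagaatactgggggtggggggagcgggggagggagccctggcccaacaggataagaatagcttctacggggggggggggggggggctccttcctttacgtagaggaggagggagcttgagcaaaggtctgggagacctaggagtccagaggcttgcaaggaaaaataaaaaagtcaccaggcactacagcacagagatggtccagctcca

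The 3 further type VI genes were not tested. *Col6a4* had between 3 and 11 counts per library, and *Col6a5* and *Col6a6* had at most 1. The last 2 genes shared 3.42% and 3.52% of their 50-base exonic stretches with each other, the highest share of any collagen pair. No such stretch of the 3 classical type VI chains occurred in another collagen gene.

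Of the other collagens, 9 of the 16 tested of 21 were higher, 4 lower and 3 made no call. The shares were 56.25% higher and 25% lower, where 42.2% and 40.8% of all genes were. Of the 9 higher chains, 7 passed the filter through D5 alone, which favours a call of higher. The 9 chains that passed in both groups split into 2 higher, 4 lower and 3 without a call, with a median log2 fold change of -0.25. Over all 16 the median was 3.02, or 2.26 when undetected chains were set to their bound. Their summed level was between 561 and 582 CPM at D0 and between 1511 and 1593 CPM at D5, most of it from *Col12a1*.

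The FACIT collagens attach to the surface of fibrils without forming fibrils themselves. Of 7 tested, 4 rose and 1 fell, that is 57.1% and 14.3%, where 42.2% and 40.8% of all genes did so. Among the 4, *Col14a1* and *Col22a1* passed the filter on low counts through D5 alone. *Col12a1*, a FACIT of tendon and muscle matrix (chr9:79598991-79718831, minus strand), had 303, 302 and 316 CPM at D0 and 1315, 1276 and 1358 CPM at D5. It rose 4.29-fold (log2 fold change 2.10, SE 0.034, adjusted p = 2.5e-30) and was the most abundant of the other collagens. *Col14a1*, its relative, had 3, 7 and 2 counts at D0 and 45, 46 and 58 counts at D5 (log2 fold change 4.27, SE 0.33, adjusted p = 4.1e-13). Without D0 replicate 2, which held 7 of these counts, its log2 fold change was 4.86. *Col19a1*, a collagen of basement membrane zones, had 0.533, 0.428 and 0.521 CPM at D0 and 7.68, 7.26 and 7.83 CPM at D5. It rose 15.3-fold (adjusted p = 4.1e-20). *Col22a1*, a collagen of the muscle-tendon junction, had 1, 1 and 0 counts at D0 and 11, 9 and 10 at D5, at least 5.33-fold higher (adjusted p = 3.2e-07) but still under 1 CPM. *Col16a1*, found near basement membranes and fibrils, was the FACIT that fell, from 43.9, 43.3 and 43.3 CPM to 13.6, 12.8 and 14.9 CPM (log2 fold change -1.66, SE 0.055, adjusted p = 2.6e-22). No call was made for *Col9a3*, with a log2 fold change of -0.44 (adjusted p = 0.175), or for *Col20a1*, with 0.04 (adjusted p = 0.886) and a sign that changed with total counts and with ERCC scaling. *Col9a1* and *Col9a2* had 0 counts in every library.

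The transmembrane collagens are anchored in the cell membrane, and 3 of 4 rose from near the detection limit. That was 75%, where 42.2% of all genes were higher, but the 3 passed the filter on low counts through D5 alone. Of the 4, only *Col17a1* passed it in both groups. *Col25a1*, made by muscle and needed for its innervation by motor neurons, had 4, 2 and 7 counts at D0 and 349, 376 and 329 counts at D5. It rose from 0.109 ± 0.063 CPM (SD, n = 3) to 14.1 ± 1.04 CPM (log2 fold change 6.97, SE 0.19, adjusted p = 1.0e-24). *Col13a1*, a collagen of the neuromuscular junction, had 0 counts in every D0 library and 82, 88 and 72 counts at D5, at least 43.1-fold higher (adjusted p = 8.3e-17). *Col23a1* had 6, 13 and 5 counts at D0 and 84, 122 and 103 counts at D5 (log2 fold change 4.34, SE 0.25, adjusted p = 5.4e-16). The 3 chains had no library of 1 group within the range of the other. *Col17a1*, a component of epithelial hemidesmosomes, had between 9 and 22 counts per library and made no call (log2 fold change -0.17, adjusted p = 0.647).

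Among the remaining chains the changes were modest where the gene was abundant. *Col8a1*, a short-chain collagen of vessel and corneal matrix, had 176, 174 and 182 CPM at D0 and 145, 150 and 153 CPM at D5. It fell by 0.25 on the log2 scale (SE 0.034, adjusted p = 7.1e-08). Its partner *Col8a2* had 0, 1 and 5 counts at D0 and 88, 96 and 106 counts at D5 (log2 fold change 6.17, SE 0.33, adjusted p = 7.6e-17). The D0 level of *Col8a2* rested on few counts: without D0 replicate 3 the fitted value was 7.86. *Col18a1*, the source of endostatin in basement membranes, went from 20.1, 20.7 and 20.6 CPM to 13.4, 14.8 and 15.7 CPM (log2 fold change -0.48, SE 0.062, adjusted p = 2.8e-08). *Col7a1*, the anchoring fibril of skin, had 18.4, 17.7 and 17.5 CPM at D0 and 12.2, 15.8 and 13.6 CPM at D5 (log2 fold change -0.37, SE 0.071, adjusted p = 2.9e-05). These 3 small falls, of *Col8a1*, *Col18a1* and *Col7a1*, did not pass with ERCC scaling, where the values were further from 0 (-0.82, -1.06 and -0.89) with SEs from 0.517 to 0.525. *Col26a1* had 1, 2 and 1 counts at D0 and 37, 39 and 41 counts at D5, at least 20.8-fold higher (adjusted p = 1.3e-13). *Col10a1* (5 to 14 counts), *Col15a1* (0 to 5) and *Col28a1* (0 to 3) were not tested.

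Neighbouring genes did not always move together. Of 8 pairs of adjacent collagen genes, *Col3a1* and *Col5a2* lie tail to tail on chromosome 1, 24614 bases apart, and had log2 fold changes of 2.77 and 0.15. *Col9a1* and *Col19a1* lie 9205 bases apart, with the first at 0 counts and the second higher at D5. The 2 other pairs, on chromosome 9, held type VI genes that were not tested. Exons on opposite strands overlapped by at most 6.07% of the length of any chain, reached at *Col9a3*.

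Start windows from RefSeq (GRCm38.p6) were found for 35 of the 44 chains, of which 15 were called higher and 8 lower. Some of these windows do not lie at the annotated gene start. The RefSeq start was 49344 bases from it for *Col25a1*, 804 for *Col1a2* and 299 for *Col11a2* among the higher chains, and 1408 for *Col27a1* among the lower. Searched on both strands, the GC-box GGGCGG was in 9 of the 15 higher and 8 of the 8 lower windows, against 35.7% of all windows, and the lower set counts the overlapping windows of *Col4a1* and *Col4a2*. The motif CCAAT was in 4 of 15 and 6 of 8, against 37.4%. The E-box CANNTG, which reads alike on both strands, was in 8 of 15 and 4 of 8, against 72.3%. Its form CAGCTG was in 2 of 15 and 2 of 8, against 16.3%. The motif TATAAA was in 3 of 15 and 0 of 8, against 13.6%. These are descriptions of letters in a window, with no test.

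The genes that make, crosslink, bind and cut collagens went both ways, as the chains did. Of 20 tested of 21 enzymes and chaperones that fold and modify new chains, 7 rose and 12 fell, that is 35.0% and 60.0%, where 42.2% and 40.8% of all genes did so. All 20 passed the filter in both groups, with a median log2 fold change of -0.16. The 21 collagen chains that passed it in both groups had a median of 0.03. *Serpinh1*, the collagen chaperone HSP47, fell from 920 ± 31.4 CPM (SD, n = 3) to 418 ± 18.7 CPM (log2 fold change -1.14, adjusted p = 6.1e-23). The prolyl 4-hydroxylase chain *P4ha2* and the lysyl hydroxylase *Plod3* fell by 1.30 and 0.90 on the log2 scale. Their relatives *P4ha3*, *P3h3* and *P4ha1* rose by 2.92, 1.64 and 0.62. With ERCC scaling 1 gene of this list was higher and 5 were lower, where 11.1% and 23% of all genes were, and the rises of *P3h3* (1.05) and *P4ha1* (0.06) did not pass.

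Of 13 tested of 15 genes that trim and crosslink collagens, 8 rose and 5 fell, with a median of 0.89. That is 61.5% and 38.5%, where 42.2% and 40.8% of all genes did so. Among the 13, 1 passed the filter through D5 alone. The crosslinking enzyme *Tgm2* rose by a log2 fold change of 3.45, the procollagen protease *Adamts2* by 2.70 and the lysyl oxidase *Loxl3* by 2.41. Another lysyl oxidase, *Loxl2*, fell by 4.55 on the log2 scale, from 107 ± 1.69 CPM to 4.56 ± 0.67 CPM. *Pcolce2* and the procollagen C-proteinase *Bmp1* fell by 2.59 and 1.45. *Pcolce*, the relative of *Pcolce2*, went the other way, from 54.1 ± 0.93 CPM to 286 ± 9.35 CPM (log2 fold change 2.40). Members of the lysyl oxidase family thus moved in opposite directions.

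Of 7 tested of 8 collagen receptors, 4 rose and 3 fell, with a median of 3.57. These were 57.1% and 42.9%, where 42.2% and 40.8% of all genes rose and fell. *Itga1* and *Itga11* passed the filter through D5 alone, and the 5 receptors that passed in both groups split into 2 higher and 3 lower, with a median of -0.24. *Mrc2*, an uptake receptor for collagen, rose from 20.1 ± 0.38 CPM to 239 ± 8.90 CPM, and *Itga10*, a collagen-binding integrin chain, rose by a log2 fold change of 4.30. The common integrin chain *Itgb1* and the kinases *Ddr1* and *Ddr2* fell by 0.78, 0.58 and 0.24 on the log2 scale, and with ERCC scaling *Ddr1* (-1.16) and *Ddr2* (-0.80) lay further from 0 but did not pass. Of 6 tested of 8 genes that cut collagens, 4 rose, 1 fell and 1 made no call. As shares, 66.7% rose and 16.7% fell, where 42.2% and 40.8% of all genes did so. The median of this list was 2.57, or 2.203 with undetected genes at their bound. *Mmp13* and *Mmp16* passed the filter through D5 alone, and of the 3 that passed in both groups 2 rose and 1 fell. *Mmp2*, the gelatinase, went from 7.22 ± 0.46 CPM to 1229 ± 27.4 CPM (log2 fold change 7.41, adjusted p = 5.0e-40). *Mmp16* and *Mmp14*, membrane proteases that activate it, rose by 6.73 and 0.99, the latter not passing with ERCC scaling (0.42), and *Mmp15* fell by 1.09.

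**Figure D4:**
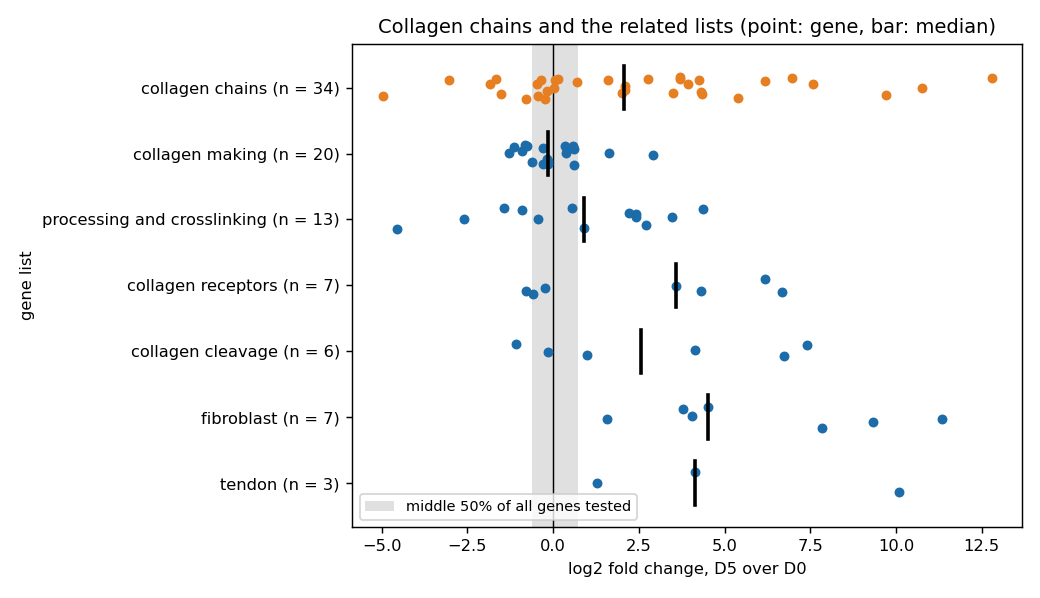
Log2 fold change of D5 over D0 for each tested gene (points) of the collagen chains and 6 related lists, with the list median as a black bar and the middle 50% of all genes tested as a grey band. The 34 collagen chains have a median of 2.05, which is 0.03 over the 21 that passed the filter on low counts in both groups. The 20 genes of collagen making, which all passed in both groups, have a median of -0.16. Points of undetected genes are fitted values. Through D5 alone passed 12 chains, 1 processing gene, 2 receptors, 2 cleavage genes, 5 fibroblast markers and 2 tendon markers.

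Markers of other collagen-making cells moved too. Of the 8 fibroblast markers, 7 were tested and 7 rose, where 42.2% of all genes did so. Their median log2 fold change was 4.52. Of these 7 markers, 5 passed the filter through D5 alone, which favours a call of higher, and *Pdgfra* and *S100a4* passed in both groups. The summed level of the list went from between 15.6 and 16.5 CPM at D0 to between 326 and 369 CPM at D5. *Dcn*, a proteoglycan of collagen fibrils, went from 0.375 to 242 CPM, *Dpt* and *Pdgfra* rose as well, *Lum* had 0 counts in every D0 library, and *Thy1* had at most 1 count in any library. Of 4 tendon markers, 3 were tested and 3 rose, where 42.2% of all genes did so. Of these 3, *Scx* alone passed the filter in both groups. The list summed to between 87.5 and 89.1 CPM at D0 and between 214 and 222 CPM at D5. *Scx* was the most abundant (log2 fold change 1.26, and 0.70 without a call with ERCC scaling), and *Tnmd* had no more than 3 counts. The part of these fibroblast and tendon markers in the collagen results was not tested.

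Markers of the further cell types gave few tested genes, and the calls below stand beside 42.2% of all genes higher and 40.8% lower. Of 6 chondrocyte markers, 1 rose and 1 fell, summed from between 50.6 and 55.4 CPM to between 68.7 and 71.3 CPM, nearly all *Sox9* (log2 fold change 0.42, and -0.15 with ERCC scaling), and *Acan* was at 0 in every library. Of 6 osteoblast markers, *Runx2* alone was tested and fell (summed from between 109 and 114 CPM to between 41.4 and 43.1 CPM), with *Ibsp* and *Dlx5* at 0. Of 6 adipocyte markers, *Cebpa* rose and *Pparg* fell (between 18.6 and 20.8 CPM, then between 31.1 and 32.5 CPM), with *Lep* at 0. The 5 endothelial markers summed to between 3.31 and 3.59 CPM at D0 and between 0.517 and 0.884 CPM at D5, with 2 lower and *Emcn* at 0. The 5 macrophage markers summed to between 3.18 and 3.41 CPM and between 2.37 and 3.04 CPM, with 1 lower and *Adgre1* at 0.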

How the data were processed

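Total RNA of 6 C2C12 cultures, 3 at D0 and 3 at D5, was sequenced with ERCC spike-ins. The authors aligned the reads and deposited raw read counts per gene, counted with featureCounts on mm10 per the submitters' processing notes. The paper's methods and the labels name different aligners, and the strand setting, annotation release and handling of reads with several matches are not given in the sources used here, so overlapping genes can share reads. The notes also name DESeq2 1.6.3. No column of another series was present. The 92 ERCC rows and an unnamed row that summed its column entered neither the library sizes nor the tests.

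CPM, TPM and log2 fold changes were computed from the deposited counts. Each gene was tested with edgeR 4.0.16 in R 4.3.3 (glmQLFit and glmQLFTest, TMM factors, filterByExpr), D5 against D0, with Benjamini-Hochberg adjustment over 16290 genes and a threshold of 0.05. The SE was taken as the size of the log2 fold change over the square root of F. Shares and chain ratios were compared by exact two-sided permutation tests. Positions and exonic lengths came from GENCODE M21 (GRCm38), in which 99.8% of gene rows matched, some by identifier without its version, and start windows came from RefSeq. Replicate pairs differed beyond sampling noise (chi-square per degree of freedom 2.28 to 3.71). The fits were tested on simulated data.

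Values in every library were given for chains with a mean of at least 1 CPM in either group, and other chains by counts and range. From each related list, genes called with the largest change (up to 3 each way) among those of at least 10 CPM in a group were named. *Pcolce*, and *Lum*, *Thy1*, *Tnmd* and other markers at or near 0, were named after their values were seen. The members, classes and lists were chosen with earlier results of these data known. The alternatives were DESeq2 1.42.0, upper-quartile factors, total counts, ERCC scaling, 2 other filters on low counts, leaving out each library, the replicate number as a block, TPM shares and, chosen after seeing the data, principal transcript lengths and the split of calls by the group through which a gene passed the filter.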

Additional observations from a re-analysis of the deposited data

How the results depend on the processing

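Of 427 log2 fold changes of single chains under the alternatives, 411 kept direction and call. The count of 21 higher and 9 lower chains was 21 and 9 with DESeq2 and with upper-quartile factors. With at least 10 counts in every library 10 chains were higher and the median was 0.042, since 12 of the called chains were not tested there. With ERCC scaling the median was 1.46 and 6 calls were lost: those of *Col11a2* (0.14) and *Col4a5* (1.03), nearer to 0, those of *Col18a1* (-1.06), *Col7a1* (-0.89) and *Col8a1* (-0.82), further from 0 with a larger SE, and that of *Col5a2*, which turned. The cause was not tested. Without a filter 23 chains were higher, *Col2a1* and *Col15a1* added. The difference in collagen share was 0.476 percentage points of counts and 0.140 of TPM. Leaving out 1 library gave 21 higher, 8 to 9 lower chains, medians from 1.94 to 2.08 and share differences from 0.470 to 0.484.

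Direction turned for *Col20a1* (-0.044 with total counts, -0.58 with ERCC scaling, -0.012 without a filter and from -0.067 to 0.18 with 1 library left out), *Col5a1* (-0.052, -0.53 and -0.020 under the first 3), *Col5a2* (-0.42 with ERCC scaling), *Sox9* (-0.15 with ERCC scaling) and *Col17a1* (from -0.30 to 0.033 with 1 library left out). None of these values passed the threshold.

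Samples of the same number in D0 and D5 had deviations that correlated by 0.02, 0.12 and 0.06. For samples of unlike number the values ran from -0.08 to 0.02. This does not settle whether the samples were paired, and the main fit did not take the numbers as pairs. With the replicate block, 21 chains were higher, 9 lower and the median was 2.05. Depth limits the 7 tested chains with at most 3 counts in every library of a group to bounds.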
